A study of Rattus norvegicus with 6 samples.

Results

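Integrins are cell surface receptors that join the extracellular matrix to the actin cytoskeleton. Each receptor is a pair of 1 alpha and 1 beta chain, and the pair sets the ligand. Laminins are secreted proteins built from 1 alpha, 1 beta and 1 gamma chain, and they form the scaffold of basement membranes. In the brain, the endfeet of astrocytes rest on such a membrane around blood vessels and at the brain surface. The genes described here are those whose symbols in the deposited table name a numbered integrin alpha or beta chain, integrin alpha V, L or X, or a numbered laminin alpha, beta or gamma chain. This name rule found 34 of 22608 gene symbols, of which 23 were integrins (15 alpha, 8 beta) and 11 were laminins.

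RNA with poly(A) tails was sequenced from primary astrocytes of rat brain. There were 3 control libraries and 3 libraries treated with β-hydroxybutyrate (BHB), a ketone body made by the liver during fasting, at 2 mM as the column headers of the deposited table give it. Strain, age, the duration of treatment and any vehicle given to the controls are not stated in the sources used here. Whether each library had a culture or an animal of its own is not stated either, and p-values then reflect only how far these libraries vary, which may be technical. Values are FPKM, fragments scaled to the length of the transcript and the size of the library. Comparisons between genes also depend on the annotation and the handling of shared reads, which are not stated in the sources used here.

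The libraries were alike, with 12288 to 12312 genes at 1 FPKM or more and summed FPKM of 354565 to 367448. The integrin and laminin genes together made up 0.287% to 0.307% of that sum. All 10 astrocyte markers on the list used were expressed, led by Fabp7, a fatty acid binding protein, at a mean of 2319 FPKM in controls. Their summed level was 4647 to 4902 FPKM in controls and 5051 to 5073 FPKM with BHB. Of the 10, only the glutamate transporter gene Slc1a3 passed the test described below, from 202.7 ± 5.003 to 455.2 ± 11.6 FPKM (n = 3 each, SD; limma adjusted p = 1.64e-05). Cells of other kinds cannot be set aside in bulk RNA, where fewer cells of a type and less RNA per cell cannot be told apart. Of 10 fibroblast and mural cell markers 7 reached the minimum for testing, with summed levels of 4472 to 4846 FPKM in controls and at 4627 to 5008 FPKM with BHB. The smooth muscle and contractile genes Tagln (3030 FPKM in controls on average) and Acta2 (1285 FPKM) made up most of that sum. The collagen genes Col1a2 and Col1a1 were at 270.9 and 98.8 FPKM and the pericyte receptor gene Pdgfrb at 26.8 FPKM, the mural markers Cspg4, Rgs5 and Des at 1.93, 1.26 and 0.483 FPKM and the fibroblast proteoglycan gene Lum at 0.118 FPKM in controls on average. Dcn, another fibroblast proteoglycan gene, was listed at 0 in 5 of the 6 libraries. Of 8 endothelial markers only Eng reached the minimum, and Cldn5, the tight junction gene of brain endothelium, was listed at 0 in all libraries. Oligodendrocyte lineage markers (6 of 8 tested, summed at 90.4 to 97.0 FPKM over the libraries, led by Cnp), neuron markers (6 of 8, 84.8 to 88.6 FPKM, led by Stmn2), Schwann cell markers (3 of 5, 113.9 to 123.5 FPKM, led by Pmp22) and ependymal markers (1 of 6, 29.9 to 35.2 FPKM, led by Foxj1) were also measured. The part of these cells in the levels below was not tested.

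The beta chains were dominated by a single gene. Itgb1, the beta chain shared by most receptors for laminin, collagen and fibronectin, stood at 489.4, 512.7 and 530.3 FPKM in the 3 controls and at 546.1, 495.5 and 490.9 FPKM with BHB. It made up 79.4% to 81.5% of the summed beta chain FPKM in every library. Itgb5, which pairs with alpha V to bind vitronectin, came next at 102.8, 97.5 and 99.0 FPKM in controls and at 102.8, 108.5 and 103.8 FPKM with BHB. Itgb8, another partner of alpha V, through which astrocytes are known to release active TGF-beta from its latent complex, was at 15.8, 15.4 and 18.1 FPKM in controls and at 18.1, 15.8 and 14.9 FPKM with BHB. The control and BHB ranges overlapped for Itgb1 and Itgb8, while those of Itgb5 were apart only by the distance between control 1 (102.77 FPKM) and BHB 1 (102.84 FPKM).

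Other beta chains were scarce. Itgb4, the partner of alpha 6 in hemidesmosomes of epithelia, had a mean of 1.97 ± 0.223 FPKM in controls, and the leukocyte chain Itgb2 had 1.83 ± 0.307 FPKM (n = 3 each, SD). Itgb3, the partner of Itga2b in platelets and of alpha V in endothelium, lay at 0.291 to 0.395 FPKM in controls and at 0.124 to 0.386 FPKM with BHB. Itgb7, a lymphocyte chain, reached at most 0.116 FPKM in any library, and Itgb6, an epithelial partner of alpha V, was listed at 0 in 4 of 6 libraries.

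Alpha chain RNA was spread over more genes. Itgav, the alpha V chain of receptors that bind the RGD motif, was highest at 51.3, 47.1 and 54.4 FPKM in controls and at 51.9, 48.9 and 49.5 FPKM with BHB. The laminin receptor chain Itga6 followed at 35.2, 33.0 and 35.1 FPKM in controls and at 35.1, 36.5 and 33.5 FPKM with BHB. Itga7, a laminin receptor chain best known from muscle, stood at 22.6, 25.3 and 26.1 FPKM in controls and at 23.9, 27.0 and 24.6 FPKM with BHB. The order Itgav, Itga6, Itga7 held in all 6 libraries, with Itgav 1.34 to 1.55 times Itga6 and Itga6 1.30 to 1.56 times Itga7.

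Itga5, the fibronectin receptor chain, and Itga1, a collagen receptor chain that also binds laminin, came next. Itga5 was at 16.5, 16.0 and 14.6 FPKM in controls and at 15.8, 18.9 and 17.0 FPKM with BHB. Itga1 was at 14.6, 14.2 and 16.9 FPKM in controls and at 14.96, 15.28 and 14.42 FPKM with BHB, and the ratio of Itga5 to Itga1 ran from 0.860 (control 3) to 1.24 (BHB 2). Their ranges overlapped in controls, while with BHB all 3 values of Itga5 lay above those of Itga1. Itga3, a further laminin receptor chain, had a control mean of 6.52 ± 0.378 FPKM (SD, n = 3). The laminin receptor chains Itga3, Itga6 and Itga7 together held 40.1% to 42.3% of the summed alpha chain FPKM.

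At a lower level, 4 alpha chains had control means of 2 to 4 FPKM and did not stand apart from each other by much. Itga8, which binds nephronectin and other RGD ligands, had 3.04 ± 0.0799 FPKM, and Itgal, the leukocyte chain of LFA-1, had 2.86 ± 0.261 FPKM (n = 3 each, SD). The collagen receptor chain Itga11 had 2.60 ± 0.141 FPKM, and Itga9, which binds tenascin-C and osteopontin, had 2.57 ± 0.168 FPKM (n = 3 each, SD). Itga2, another collagen receptor chain, straddled 1 FPKM, with 0.836 to 1.09 FPKM in controls and at 0.776 to 1.12 FPKM with BHB. Itga2b of platelets, Itgax of dendritic cells and macrophages, Itga4 of leukocytes and the cartilage chain Itga10 stayed under 1 FPKM in all libraries, with control means of 0.458, 0.339, 0.274 and 0.0125 FPKM.

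**Figure D1:**
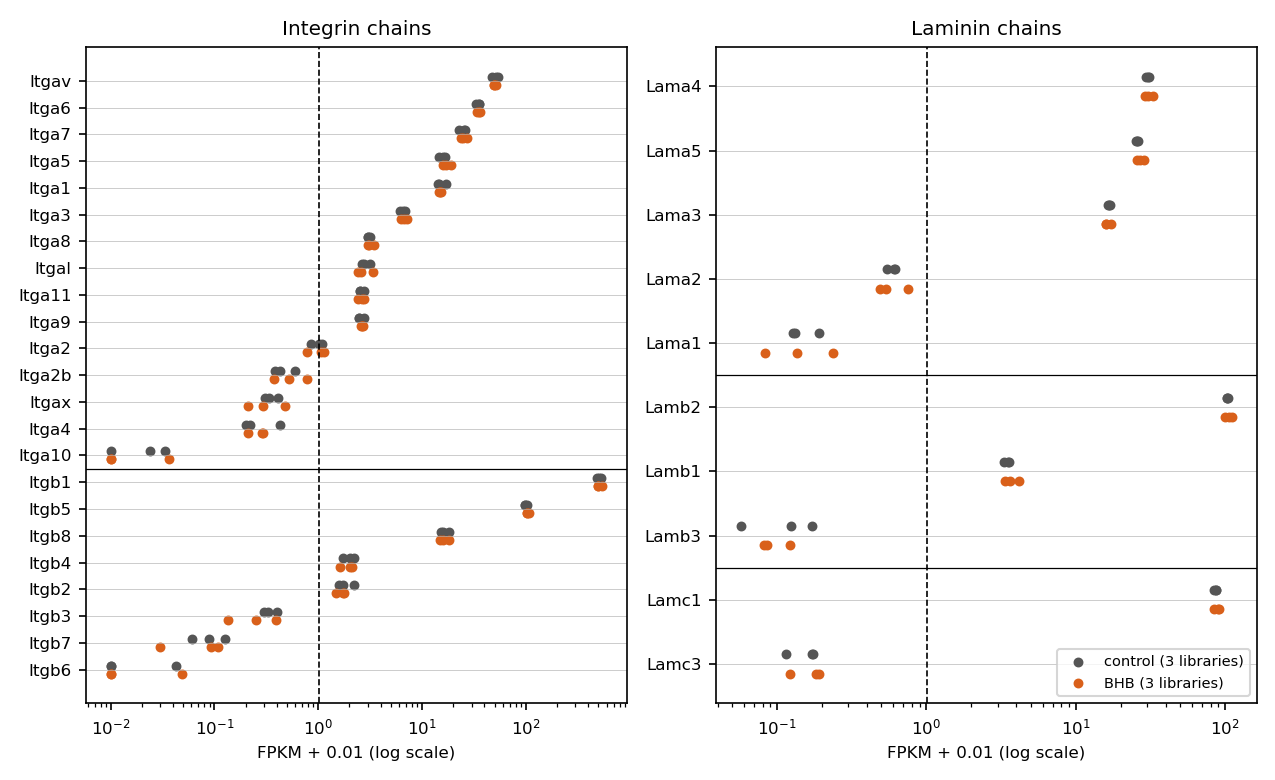
FPKM + 0.01 on a log axis for 23 integrin and 10 laminin genes, with 1 point per library (control in grey, BHB in orange), the chain classes separated by lines and 1 FPKM marked by the dashed line. Itgb1 sits highest at 489.4 to 546.1 FPKM, 11 of these genes stay left of the dashed line in all libraries, and the grey and orange points lie over each other for nearly all genes.

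Within their classes, laminin beta RNA and laminin gamma RNA each came almost wholly from 1 gene. Lamb2, the beta chain of vascular and neuromuscular basement membranes, stood at 102.9, 104.9 and 103.5 FPKM in controls and at 99.7, 111.8 and 106.8 FPKM with BHB, or 96.3% to 96.9% of the beta chain sum. Lamc1, the gamma chain of most laminins, stood at 87.0, 84.2 and 86.5 FPKM in controls and at 84.4, 88.9 and 90.7 FPKM with BHB, or 98.9% to 99.2% of the gamma chain sum. The controls spanned the narrower range for both, and it lay within that of the BHB libraries for Lamb2 and overlapped it for Lamc1. Lamb1, the beta chain of embryonic laminins, stood at 3.46 ± 0.128 FPKM in controls and at 3.71 ± 0.422 FPKM with BHB (n = 3 each, SD), and Lamb2 was 26.8 to 31.2 times as high.

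The alpha chains, which carry the main receptor binding site of a laminin, were shared by 3 genes. Lama4, known from blood vessels, stood at 30.3, 29.6 and 30.8 FPKM in controls and at 29.1, 32.6 and 30.5 FPKM with BHB. Lama5, also of vessels and of mature epithelia, stood at 25.1, 25.5 and 26.2 FPKM in controls and at 25.6, 28.6 and 26.8 FPKM with BHB. Lama3, best known from the basement membrane of skin, stood at 16.8, 16.5 and 16.9 FPKM in controls and at 15.8, 16.0 and 17.1 FPKM with BHB. This order held in each library, with Lama4 1.14 to 1.21 times Lama5 and Lama5 1.497 to 1.78 times Lama3.

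Lama2, the alpha chain usually ascribed to astrocytes in the brain and lost in a congenital muscular dystrophy, was at 0.580 ± 0.0367 FPKM in controls and at 0.583 ± 0.140 FPKM with BHB (n = 3 each, SD). Lama1, the alpha chain of early embryonic and pial basement membranes, was lower still, at 0.0729 to 0.229 FPKM over the libraries. Lamb3, a partner of Lama3 in skin, was also under 1 FPKM, with a control mean of 0.108 FPKM, as was Lamc3, at 0.143 FPKM. Lama3 RNA was thus at 16.8 ± 0.195 FPKM in controls (SD, n = 3), while Lamb3 reached at most 0.162 FPKM in any library.

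**Figure D2:**
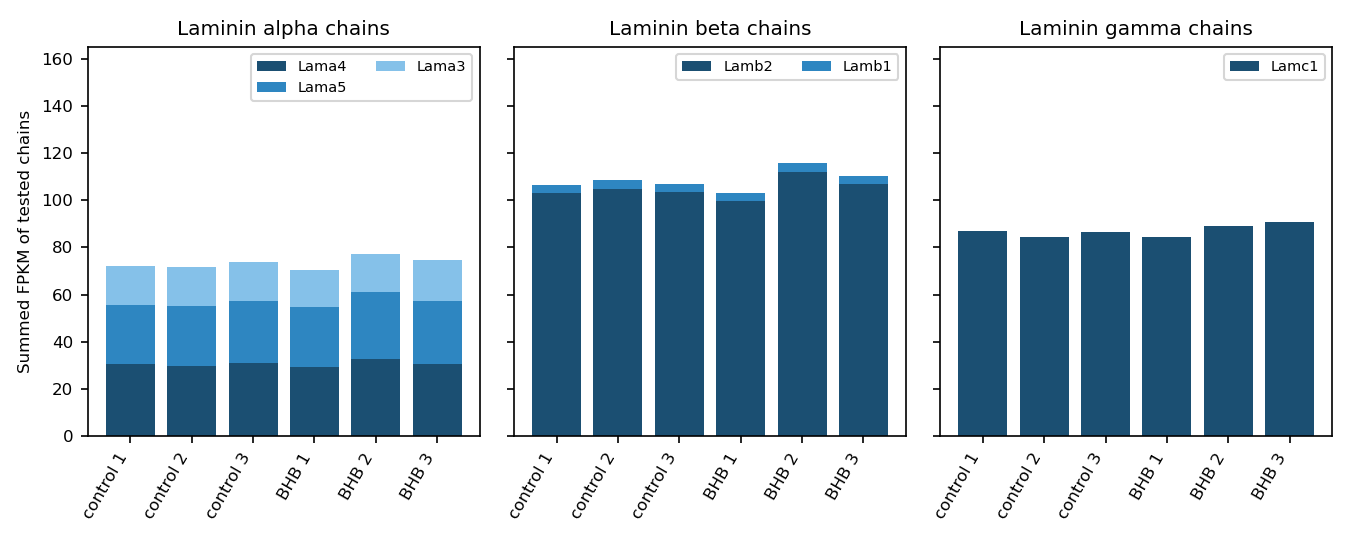
Summed FPKM of the 6 tested laminin alpha, beta and gamma chains in each of the 6 libraries, each bar divided by gene. The alpha bars are divided between Lama4 (29.1 to 32.6 FPKM), Lama5 and Lama3, while Lamb2 fills nearly all of the beta bars and Lamc1 the gamma bars.

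Summed over the members of a class, the laminin chains were close to each other in amount. The alpha sum was 0.846 ± 0.0135 of the gamma sum in controls and 0.840 ± 0.0238 with BHB, and the beta sum was 1.24 ± 0.0364 and 1.24 ± 0.0488 of it (n = 3 each, SD). Integrin classes were unequal, with a beta sum 3.93 ± 0.111 times the alpha sum in controls and 3.92 ± 0.223 times with BHB (n = 3 each, SD). Itgb1 by itself was 3.03 to 3.46 times the sum of the 12 alpha chains that can pair with it. In each of these 4 ratios the control and BHB libraries overlapped.

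To name likely receptors, 24 known heterodimers were read against the levels, and a pair was listed where each subunit had a mean of at least 1 FPKM. This describes RNA and not assembled protein, and a chain shared by several pairs counts in full in each of them. It held for 14 pairs in controls and for 14 with BHB. Of the 12 pairs of Itgb1, 9 were listed. By the level of the scarcer subunit, the first were alpha V with Itgb5 or Itgb1 (Itgav, 51.0 FPKM in controls and at 50.1 FPKM with BHB), and the laminin receptors of Itgb1 with Itga6 (34.4 and 35.0 FPKM) and Itga7 (24.7 and 25.1 FPKM). Then came the latent TGF-beta receptor of Itgav with Itgb8 (Itgb8, 16.4 and 16.3 FPKM), the fibronectin receptor of Itga5 with Itgb1 (15.7 and 17.3 FPKM) and the collagen receptor of Itga1 with Itgb1 (15.2 and 14.9 FPKM).

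The remaining listed pairs were limited by a subunit of 1 to 7 FPKM. They were Itgb1 with Itga3, Itga8, Itga9 or Itga11, Itga6 with Itgb4, and Itgb2 with Itgal or Itgam. Itgam spanned 0.675 to 1.43 FPKM over the libraries. Itga2 with Itgb1 fell just short of the minimum, as Itga2 had means of 0.977 FPKM in controls and 0.982 FPKM with BHB. For Itga6, Itgb1 was the abundant partner, since Itga6 itself was 15.1 to 21.6 times Itgb4. Alpha V with Itgb3, the vitronectin receptor of endothelium and osteoclasts, was not listed, as Itgb3 did not pass 0.395 FPKM in any library, and neither was alpha V with Itgb6. For laminins, 6 of 14 known trimers had all chains at 1 FPKM or more in each group, namely Lama3, Lama4 or Lama5 with Lamc1 and either Lamb2 or Lamb1, and those with Lamb2 were limited by the alpha chain (30.2, 25.6 and 16.8 FPKM in controls for Lama4, Lama5 and Lama3).

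**Figure D3:**
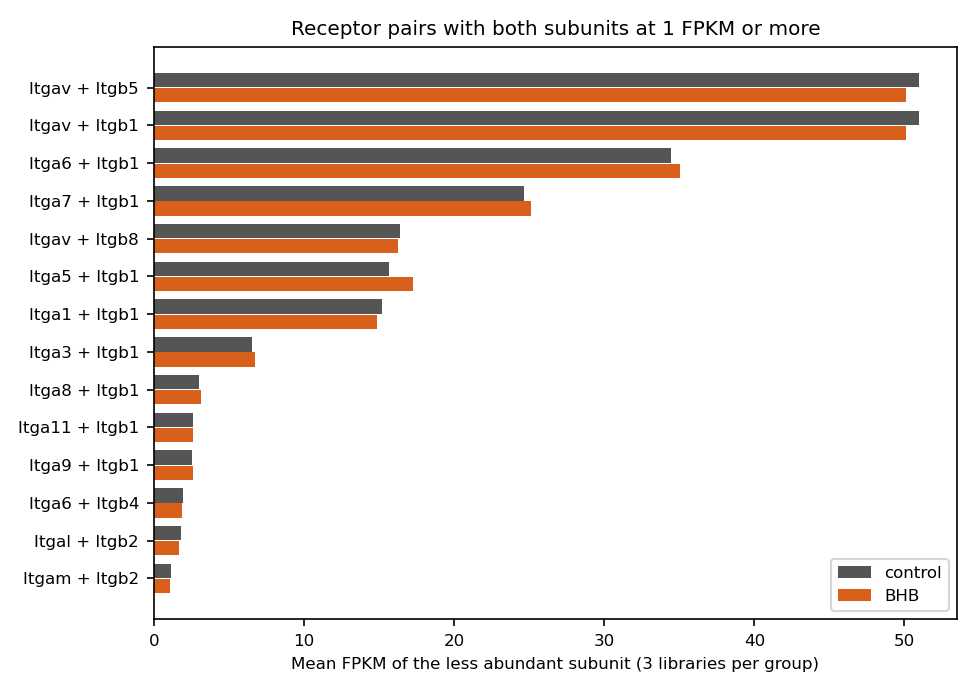
Mean FPKM of the less abundant subunit (3 libraries per group) for the 14 integrin pairs with both subunits at 1 FPKM or more, control in grey and BHB in orange. The 4 longest bars in each group belong to alpha V with Itgb5 or Itgb1 and to Itga6 and Itga7 with Itgb1, and the bars of the groups are of nearly equal length.

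Itgam, the microglia and macrophage partner of Itgb2, which falls outside the name rule, had 1.13 ± 0.398 FPKM in controls and at 1.08 ± 0.158 FPKM with BHB (n = 3 each, SD). Of the 10 microglia and macrophage markers, Itgam among them, 9 were tested, and their summed level was 47.6 to 51.3 FPKM in controls and at 46.9 to 49.5 FPKM with BHB, led by the signalling adaptor Tyrobp at a control mean of 9.38 FPKM. Of the 9 tested, 0 passed, with 3 log2 fold changes above and 6 below 0. In 3 of the 9 the groups did not overlap, beside 10.9% of all genes tested. With BHB, Aif1 and Tmem119 were higher (log2 fold changes 0.08 and 0.23) and Cx3cr1 was lower (-0.27). Itgal (2.86 FPKM) and Itgb2 (1.83 FPKM) had lower control means than 6 of these markers, which lay at 4.87 (Aif1) to 9.38 FPKM. The other markers were Tmem119 (2.53 FPKM), Ptprc (1.73 FPKM), Itgam (1.13 FPKM) and P2ry12 (0.547 FPKM). Itgal lay above all of these, and Itgb2 above all of them but Tmem119. Of the 2 other integrin genes outside the rule, Itgae, a chain of tissue lymphocytes, had 0.751 ± 0.148 and 0.937 ± 0.121 FPKM (n = 3 each, SD), and Itgad was listed at 0 in all libraries. The part of microglia in Itgal and Itgb2 was not tested.

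With BHB, no integrin or laminin gene changed past the test. The test, limma on log2(FPKM + 1), was run on genes that reached 1 FPKM in 3 or more of 6 libraries, and 22 of the 34 members were among the 12373 genes tested. Of these 22 members 0 passed at an adjusted p under 0.05 and 0 had an unadjusted p under 0.05, while 0.0566% of all genes tested passed (7 genes) and 5.59% had an unadjusted p under 0.05. The adjusted p of the members ran from 0.890 to 0.998. Log2 fold changes (BHB over control) ran from -0.09 (Itgb2) to 0.13 (Itga5), with 13 above and 9 below 0. Their median was 0.019, beside 0.0029 over all genes tested, of which 51.5% lay above 0.

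The intervals show how large a change these data leave room for. For the 13 members with a control mean of at least 10 FPKM, the 95% intervals of the log2 fold change lay between -0.21 and 0.30, or 0.864-fold to 1.23-fold on the FPKM + 1 scale. For the 9 tested members under 10 FPKM they lay between -0.32 and 0.27, on a scale that understates the change of low genes. Itgb1 lay at -0.00084 on the log2 scale (95% interval -0.12 to 0.12, limma adjusted p = 0.998). Itgav had -0.02 (-0.16 to 0.11), Itga6 had 0.02 (-0.09 to 0.14) and Lamc1 had 0.03 (-0.07 to 0.13).

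The smallest p-values belonged to Itgb5 and Itga5. Itgb5 had means of 99.8 ± 2.70 FPKM in controls and at 105.1 ± 3.03 FPKM with BHB (n = 3 each, SD), giving a log2 fold change of 0.07 with a 95% interval of -0.02 to 0.17 (limma adjusted p = 0.890). Itga5 had 15.7 ± 0.993 and 17.3 ± 1.56 FPKM (n = 3 each, SD), giving a log2 fold change of 0.13 with a 95% interval of -0.05 to 0.30 (limma adjusted p = 0.890), with the highest value in BHB 2. Itgb5 was the only tested member whose groups did not overlap, or 1 of 22, where 10.9% of all genes tested had groups that did not overlap.

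**Figure D4:**
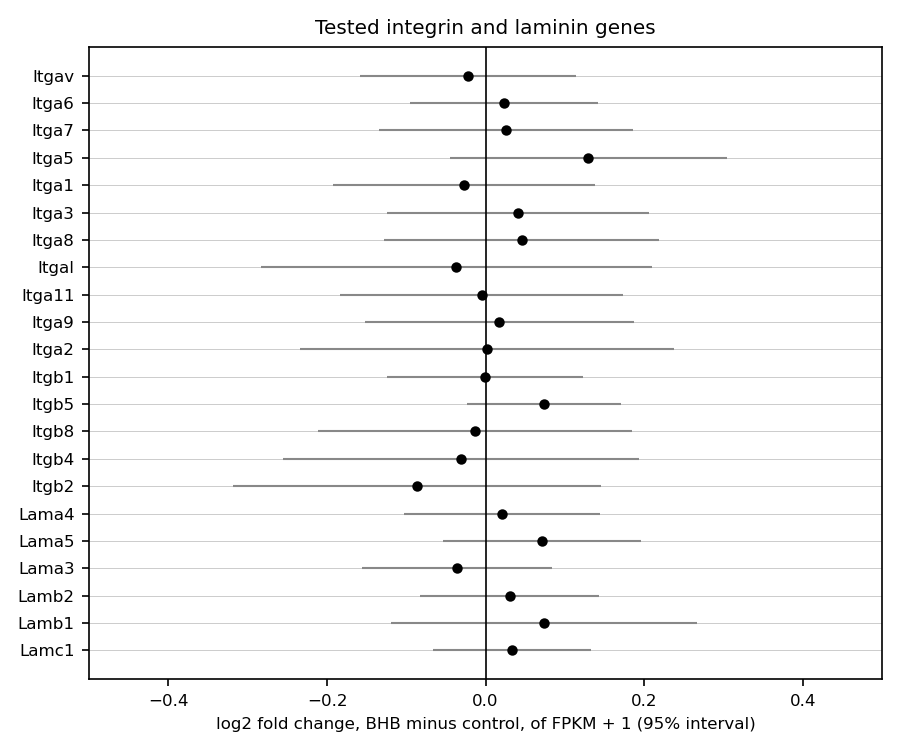
Log2 fold change of FPKM + 1, BHB minus control, with its 95% interval from limma for the 22 tested integrin and laminin genes. All intervals cover 0, and the points lie between -0.09 and 0.13.

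By role, the alpha integrins had 7 of 11 tested members above 0, the beta integrins 1 of 5 and the laminins 5 of 6. The laminin chains Lama5 (log2 fold change 0.07, 95% interval -0.05 to 0.20), Lamb1 (0.07, -0.12 to 0.27), Lamb2 (0.03, -0.08 to 0.14) and Lama4 (0.02, -0.10 to 0.15) had their highest value in BHB 2. This library was highest of the 6 in 10 of the 22 tested members, or 45.5%, and in 19.0% of all genes tested. Without BHB 2, 10 of the 22 members and 3 of the 6 laminins lay above 0, the median log2 fold change of the members was -0.0034, and the log2 fold change of 9 members changed sign, the laminins Lama4 and Lamb2 among them. The counts without BHB 2, here and for the lists of partners, were added after the values were seen. Lama3 was the laminin below 0 (-0.04, -0.16 to 0.08).

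Shares within a class moved little. Of 34 shares computed, 3 had groups that did not overlap, those of Lama5 and Lamc1 among them, while the FPKM of 10.9% of all genes tested did not overlap. Shares within a class sum to a fixed total, so they do not move independently of each other. Lama5 held 34.4% to 35.3% of the alpha chain sum in controls and 35.7% to 36.7% with BHB, a difference of about 1 percentage point between means of 34.9% and 36.1%. Lamc1 held 99.1% of the gamma chain sum in controls and 98.9% with BHB on average. Of 16 ratios between chains or sums, 2 were apart, both with Lama5: Lama4 to Lama5 at 1.18 in controls and 1.14 with BHB, and Lama5 to Lama3 at 1.53 and 1.66. The Lama5 share and these 2 ratios rest on the same Lama5 values, and the FPKM of Lama5 itself overlapped between the groups. With 3 libraries against 3, an exact permutation test cannot give a two-sided p below 0.1, and none was run on these shares.

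The tested member nearest to the minimum was Itga2, with 1.05 FPKM reached by 3 libraries.

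The partners of these genes were read from lists of related genes. Adaptors and kinases of adhesion sites, which join integrin tails to actin, had 31 of 35 members tested, 0 passing, 19 above 0 (14 without BHB 2) and a median log2 fold change of 0.0080. The actin crosslinker Flna was the most abundant at 349.4 and 356.0 FPKM in controls and BHB, and the scaffold Bcar1 had the smallest p, at 20.4, 16.5 and 15.5 FPKM in controls and at 20.55, 19.70 and 19.99 FPKM with BHB (log2 fold change 0.20, limma adjusted p = 0.881). Next by p were Parvg and Fermt3, adhesion proteins of blood cells, with log2 fold changes of -0.21 and -0.19 (limma adjusted p = 0.890 each). The groups overlapped in all 31, while they did not in 10.9% of all genes tested.

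Membrane partners of integrins, many of them tetraspanins, had 9 of 10 members tested, 0 passing and 9 above 0, with a median of 0.068 (0.035 without BHB 2, where 9 were also above 0). The tetraspanin Cd81 was the most abundant, at 477.5, 493.4 and 473.3 FPKM in controls and at 502.7, 515.7 and 502.3 FPKM with BHB (log2 fold change 0.07, limma adjusted p = 0.887). It was the only 1 of the 9 whose groups did not overlap, beside 10.9% of all genes tested. The others with the smallest p were Slc3a2, the heavy chain of CD98 that serves amino acid transporters and binds integrin tails (log2 fold change 0.15, limma adjusted p = 0.890), and Cd151, the tetraspanin of laminin receptors, at 65.3 ± 3.09 and 69.1 ± 3.996 FPKM (n = 3 each, SD; limma adjusted p = 0.898).

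Integrin ligands other than laminins had 25 of 31 members tested, 0 passing, 14 above 0 (11 without BHB 2) and a median of 0.0041. Fn1, fibronectin, was the most abundant at 832.9 ± 9.02 FPKM in controls and at 827.6 ± 72.1 FPKM with BHB (n = 3 each, SD). Icam1, a ligand of leukocyte integrins, and Ctgf, a matricellular protein, had unadjusted p under 0.05. They were 2 of the 25, beside 5.59% of all genes tested. Their log2 fold changes were 0.16 and 0.11 (limma adjusted p = 0.881 each), and their groups overlapped. Nov, a relative of Ctgf, had 0.19 (limma adjusted p = 0.890).

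Basement membrane partners of laminins had 16 of 20 members tested, 0 passing, 8 above and 8 below 0, and a median of 0.0073. Agrn, agrin, a proteoglycan that binds laminin and dystroglycan, stood at 68.2, 68.1 and 70.2 FPKM in controls and at 65.3, 59.0 and 57.6 FPKM with BHB. Its log2 fold change of -0.18 had an unadjusted p of 0.00951 and did not pass (limma adjusted p = 0.881). Ntn4, a netrin that binds the laminin network, stood at 16.9 and 18.4 FPKM on average (0.12), and the matrix protein Fbln1 at 19.8 and 17.7 FPKM (-0.15), with a limma adjusted p of 0.881 each. In these 3 of the 16 genes the groups did not overlap, beside 10.9% of all genes tested. Agrn and Ntn4 had a limma unadjusted p under 0.05, or 2 of the 16, beside 5.59% of all genes tested. Sparc, the most abundant, was at 1441 to 1598 FPKM in 5 libraries and at 2936 FPKM in BHB 2 (log2 fold change 0.34, limma adjusted p = 0.893). Without BHB 2, 4 of the 16 members lay above 0.

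Laminin receptors other than integrins had 19 of 20 members tested, 0 passing, 12 above 0 (9 without BHB 2) and a median of 0.032. Dag1, dystroglycan, the laminin receptor of astrocyte endfeet, was the most abundant at 160.7 ± 6.64 FPKM in controls and at 164.3 ± 5.43 FPKM with BHB (n = 3 each, SD). The syndecans Sdc4 (log2 fold change 0.11) and Sdc1 (0.10) and the sarcoglycan Sgce (-0.10) had the smallest p, with limma adjusted p of 0.881, 0.890 and 0.898. Of the 19, Sdc4 was the only 1 whose groups did not overlap, beside 10.9% of all genes tested.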

How the data were processed

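The authors deposited a table of FPKM values (fragments scaled to gene length and library size) with 1 column per library. The submitters' processing notes name bcl2fastq 2.0, HISAT2, StringTie and DESeq2 and the build rn6, with no roles; annotation, strand setting and handling of shared reads are not stated in the sources used here. Depth is not given; among values under 0.1 FPKM the most frequent ratio to control 1 was 0.853 to 1.01, so that inferred depths differed little. Values have at most 6 decimals in 16 members and more in 18.

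Libraries were grouped by title. Values were fitted as log2(FPKM + 1) in limma 3.58.1 (R 4.3.3; lmFit, eBayes with intensity trend), two-sided, without a replicate block, with Benjamini-Hochberg adjustment over all 12373 genes at 1 FPKM or more in at least 3 libraries and a threshold of 0.05. The fit was tested on simulated data. The members, lists and tests were chosen with earlier results of these data known. Members are named, except that 1 is not reported here, though it counts in totals, shares and sums; of the other lists, the 3 genes with the smallest p, genes that passed, the most abundant gene and Itgam, Itgad and Itgae, with the most abundant of each cell type list. Cldn5, Slc1a3, Aif1, Tmem119, Ptprc, P2ry12, Cx3cr1 and the other fibroblast and mural markers were named after their values were seen. Sequences and genome coordinates were not used here, since only a later assembly was at hand.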

Additional observations from a re-analysis of the deposited data

How the results depend on the processing

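No integrin or laminin gene passed in any setting run, with a lowest adjusted p of 0.685 (without BHB 1). Over all genes 7 passed, and 4 did without the intensity trend, 2 with the replicate block and 2 among genes with at most 6 decimals. The block leaves fewer residual degrees of freedom. Fewer genes are tested among those with at most 6 decimals, and Slc1a3 is not among them. The cause of the lower counts was not tested. When each library was left out in turn, 5 to 10 genes and 0 members passed, with a median log2 fold change of the members of -0.00335 to 0.0352. Whether same-numbered libraries belong together is not stated, and the main fit treated them as unpaired. Correlations between their deviations from the group means were -0.0899, 0.164 and -0.151. BHB 1 correlated best with control 3, at 0.203. With 3 libraries per group these correlations cannot decide whether libraries were paired. Of 298 alternative values of single members 266 kept direction and side of the threshold and 32 turned direction, none beyond 0.0549 in size. Direction could not turn without the filter, without the intensity trend, with the replicate block or among genes with at most 6 decimals. Those settings leave each log2 fold change as it was, so the 266 include values whose direction was fixed in advance. Itga2 turned to -0.000918 with a pseudocount of 0.1, -0.00676 with equal sums, -0.00402 with quantile normalization and -0.0244 with array weights, where Itga11 turned to 0.0147. Leaving out a library turned Itga1 (-0.0737 to 0.0460), Itga11 (-0.0374 to 0.0354), Itga2 (-0.0512 to 0.0787), Itga3 (-0.00157 to 0.0800), Itga6 (-0.00617 to 0.0542), Itga7 (-0.0336 to 0.0653), Itga8 (-0.00357 to 0.0768), Itga9 (-0.00488 to 0.0560), Itgal (-0.141 to 0.0349), Itgav (-0.0766 to 0.0256), Itgb1 (-0.0497 to 0.0269), Itgb4 (-0.0893 to 0.0406), Itgb8 (-0.0886 to 0.0549), Lama4 (-0.0217 to 0.0591) and Lamb2 (-0.00746 to 0.0743). The cause was not tested. Depth is unknown, and with standard errors of 0.0425 to 0.107 on the log2 scale small changes of single members can be missed.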
